A study of Mus musculus with 6 samples.

Results

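The mRNAs of 10 genes that build the neuronal cytoskeleton were compared in the cerebral cortex between mice of 6 months and mice of 24 months. The neurofilament subunits were Nefl, Nefm, Nefh and Ina, the tubulins were Tubb3, Tubb2a, Tubb4a and Tuba1a, and the microtubule-associated proteins were Map2 and Map1b. They were chosen by name, with earlier results of these data known. All 10 were found among the 55421 gene identifiers of the deposited data and passed the filter on low counts. The mice were male C57BL/6J of WT genotype, 3 of 6 months (mice 10, 11 and 17) and 3 of 24 months (mice 2, 4 and 5), and every mouse of both ages had been anaesthetised with isoflurane before cervical dislocation. Each library was made from the powdered cortex of 1 mouse, with 10 ng of total RNA and a kit for low RNA input.

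Microtubules are hollow polymers of alpha- and beta-tubulin dimers, along which motor proteins carry cargo through axons and dendrites. Microtubule-associated proteins bind the polymer and stabilise it or set its spacing, with Map2 found mainly in dendrites. Neurofilaments are intermediate filaments that fill large axons, where their amount is linked to axon calibre.

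On the TMM scale explained in the next paragraph, the 24-month-old mice had lower levels of the tubulin genes, with all 3 mice below all 3 mice of 6 months for Tubb3, Tubb2a, Tubb4a and Tuba1a. The neurofilament genes Nefl, Nefm and Nefh and the dendritic gene Map2 instead differed among the 24-month-old mice themselves, and their ages overlapped. At the 1% false discovery rate (FDR), 0 of the 10 genes passed edgeR's quasi-likelihood test, as did 0% of the 32905 genes tested. With an unadjusted p under 0.05 in the same test, 6 of the 10 genes were lower at 24 months and 0 were higher. These 6 were Ina, the 4 tubulins and Map1b. The background of lower genes was 13.1% of all genes tested, and 26.9% of the 15761 genes with a mean CPM of at least 1, where CPM is the count divided by the library total and scaled up to a common size. In other tests at 1% FDR, 0 of the 10 genes passed either, where the share of genes called lower was 0.766% in edgeR's likelihood ratio test, 0.574% in its exact test and 0.719% in the Wald test of DESeq2. The smallest adjusted p among them was 0.016, for Tubb2a in edgeR's likelihood ratio test. At 10% FDR the quasi-likelihood test called 5 of the 10 genes lower (Ina and the 4 tubulins), against 8.33% of all genes tested. The levels of all 3 older mice lay below those of all 3 younger mice for 6 of the 10 genes, against 16.3% of all genes tested and 32.5% of those above 1 CPM. Map1b overlapped on the deposited TPM, which left 5 of the 10 genes lower in all older mice against 17.3% of genes above 1 CPM. With library totals alone Tubb2a overlapped too, which left 4 of the 10 genes against 9.36%. Without the 24-month-old mouse 5, the number on the TMM scale was 9. Separation is easier with fewer mice, and the share of all genes was not computed there, so this number cannot be set against a background.

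Unless TPM is named, ages were compared on CPM scaled by TMM, a method that sets the scale of each library from the genes it shares with the others. Library totals were 29495379 to 36494240 counts, of which the 10 genes took 0.652% to 0.850%. The libraries differed in a way that followed age. The TMM factors were 0.921 to 0.946 at 6 months and 1.04 to 1.10 at 24 months, and genes with at least 1 count numbered 33974 to 35651 at 6 months and 40208 to 43561 at 24 months. With this scaling the median log2 fold change (24 months against 6 months) was 0.15 over all genes tested and -0.14 over genes above 1 CPM, of which 70.0% lay below 0. The median of the 10 genes was -0.30, with all 10 below 0. With library totals alone, these medians were 0.34, 0.05 and -0.11, so that part of every difference given here depends on the scale chosen. When the TMM factors were taken from genes above 1 CPM only, the median of those genes was 0.01 and that of the 10 genes -0.15, so the genes of low count that entered the factors moved the scale. In bulk cortex, fewer cells of a type and less RNA per cell cannot be told apart.

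Levels of different genes were compared in TPM, in which counts are divided by exonic length and scaled to the same sum in every library. Of the 69-base words of a transcript, the length of a trimmed read, 71.6% occur in another gene for Tuba1a. For Tubb3 and Tubb4a it was 0%. The order of the genes therefore also depends on how reads of shared sequence were counted. At 6 months, Tubb4a was the highest of the 10 genes, with a mean of 1645 TPM ± 118 (SD, n = 3), and Nefh the lowest, with 34.6 TPM ± 3.20. Between them came Map1b at 1007 TPM ± 132, Nefl at 759 ± 57.8, Tubb2a at 631 ± 51.2, Tuba1a at 545 ± 30.4, Tubb3 at 518 ± 21.2, Ina at 207 ± 1.91, Map2 at 160 ± 13.7 and Nefm at 111 ± 5.64. In that order the 3 mice of neighbouring genes overlapped at 6 months only between Tuba1a and Tubb3. At 24 months they overlapped in 5 of the neighbouring pairs, which were Map1b with Nefl, Tubb2a with Tuba1a, Tuba1a with Tubb3, Ina with Map2, and Map2 with Nefm. Tubb4a ranked 46 and Nefh 4743 among all genes by mean TPM over the 6 mice.

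Tubb3, Tubb2a and Tubb4a encode beta-tubulins and Tuba1a encodes the main alpha-tubulin of neurons. Tubb3, class III beta-tubulin, is largely restricted to neurons and is widely used as a neuronal marker, whereas Tubb4a is made in neurons and strongly in oligodendrocytes. Because these 4 genes lay lower together, their promoter windows are shown, as the 250 bases before the transcription start in RefSeq (build GRCm38.p6, gene strand, 5′ to 3′). The capitals mark matches, on either strand, to the CCAAT box (CCAAT), the GC box (GGGCGG) and the TATA box (TATAAA). The windows lie at chr8:123411303-123411552 (plus strand) for Tubb3, chr13:34078009-34078258 (minus) for Tubb2a, chr17:57087601-57087850 (minus) for Tubb4a and chr15:98953502-98953751 (minus) for Tuba1a. In the GENCODE vM21 annotation the gene begins before the RefSeq start for Tubb3, Tubb4a and Tuba1a, so that the end of these windows lies within the gene.
Tubb3: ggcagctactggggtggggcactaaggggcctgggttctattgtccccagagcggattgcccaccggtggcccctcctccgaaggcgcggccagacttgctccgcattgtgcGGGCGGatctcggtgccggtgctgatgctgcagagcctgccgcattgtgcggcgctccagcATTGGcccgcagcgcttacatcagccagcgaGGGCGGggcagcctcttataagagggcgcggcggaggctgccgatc
Tubb2a: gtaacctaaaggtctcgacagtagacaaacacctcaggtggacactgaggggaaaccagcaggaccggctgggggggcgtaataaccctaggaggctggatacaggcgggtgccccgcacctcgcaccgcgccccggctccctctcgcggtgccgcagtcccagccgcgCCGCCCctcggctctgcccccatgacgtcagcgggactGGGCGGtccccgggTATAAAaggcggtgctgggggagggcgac
Tubb4a: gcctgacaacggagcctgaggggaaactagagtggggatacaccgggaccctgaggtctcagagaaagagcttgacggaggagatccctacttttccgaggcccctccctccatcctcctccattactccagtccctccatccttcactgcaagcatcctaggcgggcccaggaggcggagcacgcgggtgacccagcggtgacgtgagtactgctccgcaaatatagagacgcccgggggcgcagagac
Tuba1a: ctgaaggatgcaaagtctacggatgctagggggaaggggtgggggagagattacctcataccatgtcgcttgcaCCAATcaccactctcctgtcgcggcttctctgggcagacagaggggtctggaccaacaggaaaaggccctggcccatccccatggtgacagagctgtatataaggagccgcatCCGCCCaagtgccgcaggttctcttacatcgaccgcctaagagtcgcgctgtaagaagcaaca

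No motif was common to the 4 windows. Those of Tubb3 and Tubb2a held 2 GC boxes each and that of Tuba1a held 1, while Tubb4a had none of the motifs searched. A CCAAT box was found once each in Tubb3 and Tuba1a, and a TATA box once, in Tubb2a. Among 32851 RefSeq windows of the same length, 33.8% held a CCAAT box, 32.7% a GC box and 12.4% a TATA box. The GC content was 68.0% for Tubb3, 68.4% for Tubb2a, 61.6% for Tubb4a and 56.8% for Tuba1a, above the median of 52.4% over all windows. No matches overlapped each other, and they describe letters only. The windows of Ina, Map2 and Map1b are not shown, and those of Nefl, Nefm and Nefh were not in the table used.

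Tuba1a (chr15:98949837-98953703, minus strand) was measured at 297, 278 and 264 CPM in the 6-month-old mice 10, 11 and 17, and at 215, 207 and 206 CPM in the 24-month-old mice 2, 4 and 5. The 3 older mice lay close together and well below the younger ones. Its log2 fold change was -0.42 ± 0.09 (SE, 95% interval -0.61 to -0.23), with an adjusted p of 0.052 in edgeR's quasi-likelihood test. Of the words of 69 bases in its transcripts, the length of a trimmed read, 71.6% also occur in another gene, most often Tuba1c. Its counts therefore depend on how reads with several positions were treated. It also shares 473 exonic bases with the gene model Gm49450 on the same strand.

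Tubb3 (chr8:123411424-123422015, plus strand) had 282, 281 and 262 CPM at 6 months and 212, 216 and 216 CPM at 24 months. This was the most uniform of the 10 genes among the older mice, with a coefficient of variation of 1.22%. Between the ages the log2 fold change was -0.36 ± 0.08 (SE, 95% interval -0.54 to -0.17), with an adjusted p of 0.055 in edgeR's test. No word of 69 bases is shared with another gene.

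Tubb2a (chr13:34074274-34078007, minus strand), a beta-tubulin abundant in adult brain, had the largest difference of the 10 genes. The younger mice stood at 275, 314 and 278 CPM and the older mice at 232, 205 and 176 CPM. Mouse 5 was the lowest of all, although it was the highest of the older mice for Nefl, Nefm, Nefh, Ina, Tubb4a, Map2 and Map1b. With a log2 fold change of -0.50 ± 0.11 (SE, 95% interval -0.75 to -0.24), its adjusted p was 0.055 in the same edgeR test. Its transcripts share 44.6% of their 69-base words with other genes, mostly the neighbouring copy Tubb2b.

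Tubb4a (chr17:57080066-57087782, minus strand) had 1102, 1069 and 955 CPM at 6 months and 685, 762 and 851 CPM at 24 months. The ages did not overlap, but mouse 2 was the lowest and mouse 5 the highest of the older mice. This order was also seen for several summed marker lists described later, among them those of neurons and of oligodendrocytes. The edgeR test gave a log2 fold change of -0.44 ± 0.10 (SE, 95% interval -0.68 to -0.21), with an adjusted p of 0.055.

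Relative to the median of genes above 1 CPM, the log2 fold changes were -0.35 for Tubb2a, -0.30 for Tubb4a, -0.27 for Tuba1a and -0.21 for Tubb3, against -0.18 for Map1b to 0.10 for Nefh among the other 6 genes. The 4 tubulins lay below 0 in 16 of 16 alternative settings of scale, filter, test and left-out mouse, with an unadjusted p under 0.05 in all 16 for Tubb2a, Tubb4a and Tuba1a and in 15 for Tubb3. The setting in which Tubb3 missed that level was scaling by library totals, where its log2 fold change was -0.17 (adjusted p = 0.20 by edgeR). When the libraries were instead scaled to the summed neuron markers, a choice made after the values were seen, all 4 lost an unadjusted p under 0.05, with log2 fold changes of -0.16 for Tubb2a, -0.13 for Tubb4a, -0.09 for Tuba1a and -0.03 for Tubb3. The median log2 fold change of genes above 1 CPM was 0.18 on that scale.

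**Figure D1:**
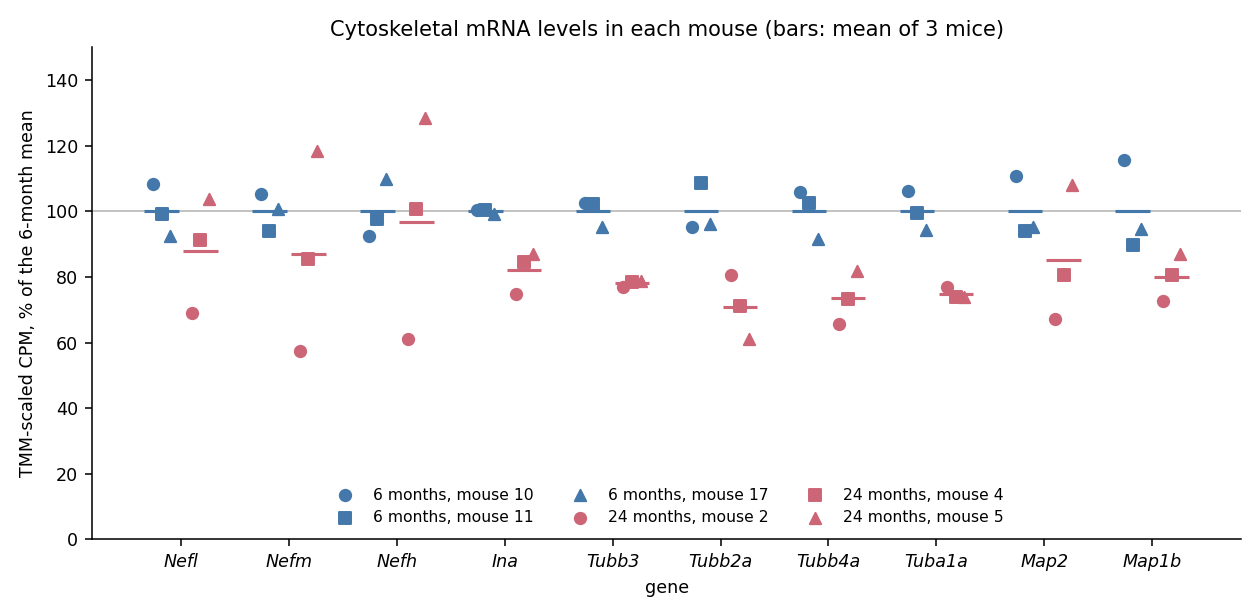
TMM-scaled CPM of each of the 10 genes in each mouse, as a percent of the mean of the 3 mice of 6 months (blue), with the mice of 24 months in red and horizontal bars at the mean of each age. The older mice form a tight group near 78% for Tubb3 (76.9% to 78.6%), while for Nefh they run from 61.0% in mouse 2 to 128% in mouse 5.

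Nefl, the light subunit on which neurofilaments assemble (chr14:68083863-68089095, plus strand), stood at 791, 723 and 674 CPM at 6 months and 504, 665 and 757 CPM at 24 months. Mouse 2 lay below all other mice and mouse 5 within the range of the younger ones. The log2 fold change was -0.18 ± 0.14 (SE, 95% interval -0.50 to 0.13), with an adjusted p of 0.39 in the quasi-likelihood test, and it was 0.0036 with library totals alone.

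Nefm, the medium subunit (chr14:68082590-68124846, minus strand), had 192, 171 and 184 CPM at 6 months. At 24 months it stood at 105 CPM in mouse 2, 156 in mouse 4 and 216 in mouse 5, so that the lowest and the highest of the 6 values were both from older mice. Its log2 fold change was -0.20 ± 0.21 (SE, 95% interval -0.66 to 0.26), with an adjusted p of 0.54. Nefl and Nefm lie on opposite strands and share 1108 exonic bases in the annotation, and strand use was not stated for the counting, so reads in that stretch cannot be assigned to either gene with certainty.

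Nefh, the heavy subunit with the long phosphorylated tail (chr11:4938754-4948064, minus strand), was the lowest of the 10 genes in every mouse by TPM. It had 36.3, 38.3 and 43.1 CPM at 6 months and 23.9, 39.6 and 50.4 CPM at 24 months, from 776 to 1713 counts. Again mouse 2 was the lowest and mouse 5 the highest of all. The log2 fold change was -0.05 ± 0.22 (SE, 95% interval -0.54 to 0.44), with an adjusted p of 0.90, and was 0.13 with library totals alone.

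Ina, alpha-internexin, which co-assembles with the triplet subunits in central neurons (chr19:47014698-47025327, plus strand), varied less among the older mice than Nefl, Nefm and Nefh. Its coefficient of variation was 0.69% at 6 months and 7.96% at 24 months. The younger mice were nearly identical, at 191, 191 and 189 CPM, and the older mice were all lower, at 142, 161 and 166 CPM. Its log2 fold change was -0.28 ± 0.09 (SE, 95% interval -0.49 to -0.08), with an adjusted p of 0.080 in the quasi-likelihood test. The unadjusted p stayed under 0.05 in 10 of 16 alternative settings, and the log2 fold change was -0.09 with library totals alone. Its exons overlap Nt5c2 on the other strand by 456 bases.

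The spread between mice was therefore uneven across the genes. The SD of log2 CPM was 0.12 at 6 months and 0.30 at 24 months for Nefl, 0.08 and 0.52 for Nefm, 0.13 and 0.55 for Nefh, and 0.13 and 0.35 for Map2. For Tubb3 it was 0.06 and 0.02, and for Tuba1a 0.09 and 0.03. The other tubulins did not share this fall, with 0.11 and 0.20 for Tubb2a and 0.11 and 0.16 for Tubb4a. Ina had 0.01 and 0.12, and Map1b 0.19 and 0.13. The median over the 10028 genes of at least 10 CPM was 0.10 at 6 months and 0.13 at 24 months. These spreads rest on 3 mice each and were not tested. The age difference of the neurofilament triplet and Map2 turned on mice 2 and 5. The libraries of mice 2, 4 and 5 also ran in order, with TMM factors of 1.10, 1.07 and 1.04. Their genes with at least 1 count numbered 43561, 42717 and 40208, and their totals were 29495379, 32350231 and 32813159 counts. The part of these library differences in the spread was not tested. Without the 24-month-old mouse 5, the log2 fold changes were -0.32 for Nefl (adjusted p = 0.13), -0.48 for Nefm (0.072), -0.30 for Nefh (0.31) and -0.43 for Map2 (0.046), in the same edgeR test, and the unadjusted p of Nefl, Nefm and Map2 was then under 0.05. Without the 24-month-old mouse 2 they were -0.03, 0.04, 0.21 and -0.07, with adjusted p of 0.89, 0.89, 0.35 and 0.76.

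Map2, the dendritic microtubule-associated protein (chr1:66175273-66442583, plus strand), had 827, 703 and 712 CPM at 6 months and 502, 603 and 808 CPM at 24 months. Mice 2 and 4 lay below the younger mice and mouse 5 among them. Over the ages the log2 fold change was -0.23 ± 0.16 (SE, 95% interval -0.58 to 0.12), with an adjusted p of 0.34.

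Map1b, a large microtubule-associated protein of growing axons that persists in adult neurons (chr13:99421446-99516540, minus strand), drew the most counts of the 10 genes, with 107145 to 161725 per library. Its levels were 5246, 4070.4 and 4300.0 CPM at 6 months and 3303, 3653 and 3949.5 CPM at 24 months. All older mice lay below all younger ones, by a narrow margin between mouse 11 and mouse 5. The log2 fold change was -0.32 ± 0.11 (SE, 95% interval -0.58 to -0.06), with an adjusted p of 0.10 in the quasi-likelihood test. The unadjusted p stayed under 0.05 in 7 of 16 alternative settings. It was above 0.05 without the 6-month-old mouse 10 or 11 and without the 24-month-old mouse 2 or 4. There the adjusted p was 0.25 to 0.29 in the same edgeR test. The unadjusted p was also above 0.05 with TMM factors of genes above 1 CPM, filterByExpr, a mean of at least 1 CPM and limma. With library totals alone it was above 0.05 too, and the log2 fold change was -0.13.

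**Figure D2:**
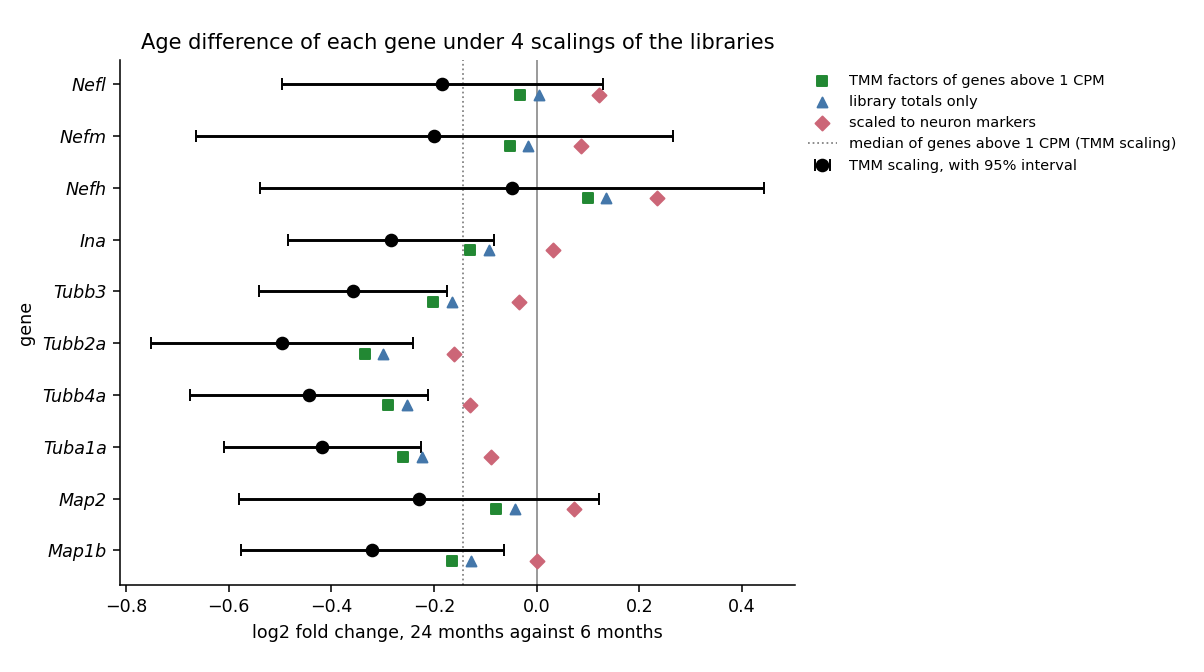
Log2 fold change (24 months against 6 months, x axis) of each gene with TMM scaling and its 95% interval (black), and its value under 3 other scalings of the same libraries. The 4 tubulins lie left of 0 under every scaling shown, whereas Nefl, Nefh and, with neuron markers, Ina, Nefm, Map2 and Map1b pass to the right of it.

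Levels of cell type markers were set beside these values, as summed TMM-scaled CPM of each list. The 8 neuron markers summed to 11749, 10611 and 10622 CPM at 6 months and 7905, 8702 and 9929 CPM at 24 months, all older mice below all younger ones. Of the 8, 4 were lower at an unadjusted p under 0.05, and the median of the list was -0.30 on the log2 scale. Over all genes above 1 CPM the share was 26.9% and the median -0.14. Scaling the libraries to these markers moved the median of the 10 genes to 0.02, with 0 genes lower at an unadjusted p under 0.05. The median of genes above 1 CPM was 0.18 on that scale, so the median of the 10 genes still lay below it. The share of all genes lower at that p was not computed on that scale. Counts of Tubb4a per 100 counts on neuron markers were still lower in all older mice, at 8.57 to 8.76 against 8.99 to 10.1, while the other 9 genes overlapped between ages on that scale. Of genes above 1 CPM, 2.6% were lower in all older mice on it. On the TMM scale, 2 of the 3 markers of large projection neurons of layer 5 were lower at an unadjusted p under 0.05. The share of genes above 1 CPM was 26.9%, as given above. The sum of these 3 markers was 180 to 216 CPM at 6 months. In mice 2, 4 and 5 it was 144, 174 and 118 CPM, so that mouse 5 was the lowest, against its place for Nefl, Nefm, Nefh and Map2.

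The 7 oligodendrocyte markers overlapped between ages but varied widely among the older mice, at 1274 CPM in mouse 2, 3087 in mouse 4 and 4097 in mouse 5, against 2405 to 3768 CPM at 6 months. The 3 markers of parvalbumin interneurons, cells rich in neurofilaments, took the same order, with 177, 242 and 331 CPM in mice 2, 4 and 5 against 223 to 282 CPM at 6 months. Endothelial markers ran from 111 to 153 CPM at 24 months and from 135 to 143 CPM at 6 months, also lowest in mouse 2 and highest in mouse 5. In the older mice Nefl, Nefm, Nefh and Map2 took the order of these lists, which was also that of the neuron, oligodendrocyte precursor and microglia sums but not of the layer 5 sum. Among the 6-month-old mice the lists differed in their order. Oligodendrocyte markers were highest in mouse 11, where Nefm was lowest, and lowest in mouse 17, where Nefh was highest. The neuron sum took the order of Nefm and Map2 there, with mice 11 and 17 nearly equal. The precursor sum took that of Nefl and the endothelial sum that of Nefh. The part of cell composition in those genes was not tested. Summed markers of astrocytes (3331 to 3496 CPM at 6 months, 3424 to 3524 CPM at 24 months) and of microglia (433 to 437 CPM and 412 to 446 CPM) overlapped between ages. Those of oligodendrocyte precursors and of choroid plexus overlapped as well. Across the 9 lists, no marker was at 0 in any library.

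**Figure D3:**
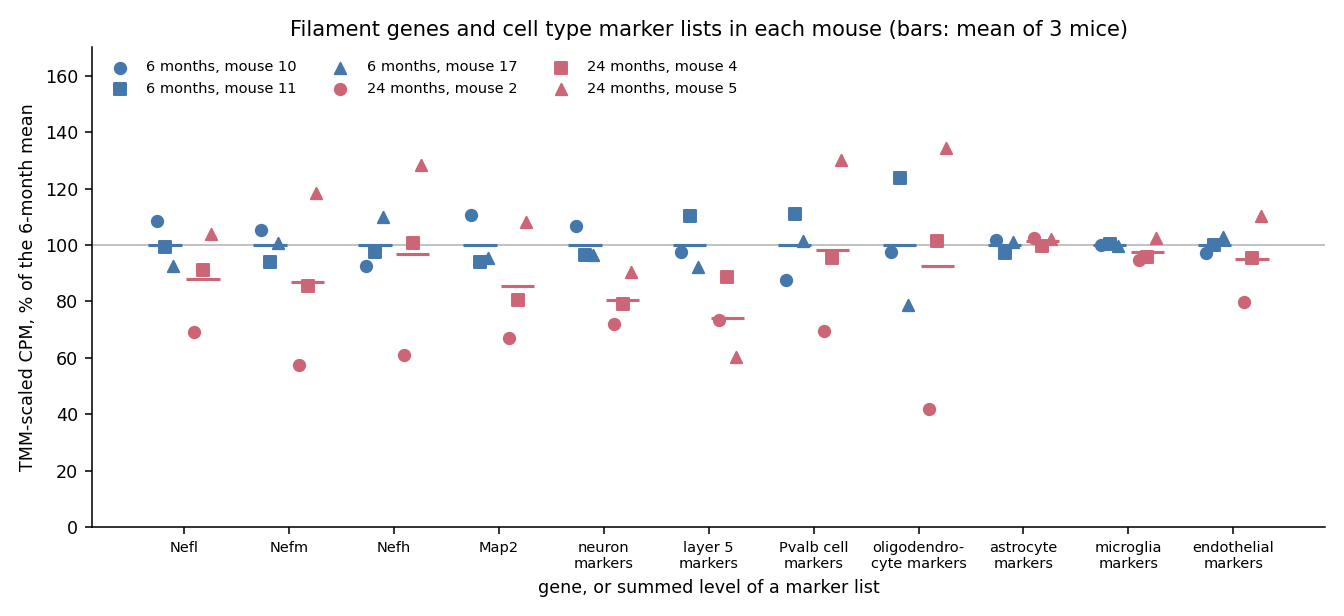
Nefl, Nefm, Nefh, Map2 and the summed level of 7 marker lists in each mouse, as a percent of the mean of the 3 mice of 6 months (TMM-scaled CPM), with horizontal bars at the mean of each age. Oligodendrocyte markers stood at 41.8% in the 24-month-old mouse 2 and 134% in mouse 5, and the neurofilament genes took the same order in the 3 older mice, but not in the 3 younger ones.

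The genes whose log2 CPM followed the mean of Nefl, Nefm and Nefh most closely over the 6 mice were sought among 10018 other genes of at least 10 CPM. The 5 highest were Aldh1a1 (Pearson's r = 0.997, Spearman's rho = 1.0), Tmem144 (0.994, 1.0), Axl (0.993, 0.886), Zfp157 (0.990, 1.0) and Adgrf5 (0.989, 0.829). Without the 2 mice farthest from the median, r fell to 0.935, 0.981, 0.720, 0.961 and 0.483 in the same order. Aldh1a1, a retinaldehyde dehydrogenase, had 37.4, 35.7 and 36.6 CPM at 6 months and 11.2, 28.3 and 55.1 CPM at 24 months. These were the closest of many, as 377 of the genes compared (3.76%) had an r above 0.9, and the genes share their libraries.

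Within each family the composition was compared as the share of each gene in the summed TPM of a mouse, which does not depend on the scale of the library. The size of a share does depend on how reads of sequence common to several genes were counted. The neurofilament subunits kept shares that overlapped between ages for 4 of 4 genes. Nefl made up 68.2% ± 1.73 (SD, n = 3) at 6 months and 69.0% ± 0.39 at 24 months, Ina 18.7% ± 0.95 and 17.9% ± 2.27, Nefm 9.99% ± 0.56 and 9.77% ± 1.59, and Nefh 3.13% ± 0.45 and 3.38% ± 0.57 (exact permutation tests, two-sided, p = 0.6 to 0.9). On the TPM scale, which like library totals takes no TMM factor, the sum of the family was 1111 TPM ± 57.1 at 6 months and 1047 TPM ± 207 at 24 months (exact permutation test, two-sided, p = 0.8).

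Among the 8 beta-tubulins, Tubb4a made up 48.1% ± 1.43 at 6 months and 47.1% ± 4.03 at 24 months (exact permutation test, p = 0.8) and Tubb2a 18.5% ± 1.23 and 17.5% ± 2.78 (p = 0.7, same test). The share of Tubb3 was higher in all older mice, at 15.2% ± 0.12 and 15.8% ± 0.21 (p = 0.1 in a two-sided exact permutation test, which cannot give less with 3 mice per age, and 0.2 after adjustment over the family), although its own level was lower. The shares of Tubb2b (1.08% ± 0.09 and 1.23% ± 0.04), Tubb6 and Tubb1 were also higher in all older mice, with the same p by the exact test. The summed TPM of the family was 3418 ± 165 at 6 months and 2776 ± 61.5 at 24 months, with all older mice lower (exact permutation test, p = 0.1).

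Of the 8 alpha-tubulins, Tuba1a contributed 59.1% ± 1.56 of the summed TPM at 6 months and 58.2% ± 1.55 at 24 months (exact permutation test, p = 0.5). Tuba1b stood at 12.9% ± 0.54 and 14.0% ± 0.40, higher in all older mice (exact permutation test, p = 0.1, adjusted p = 0.27), and the minor genes Tuba1c and Tubal3 did likewise. The sum of the family was 921 TPM ± 27.0 at 6 months and 758 TPM ± 10.6 at 24 months, with all older mice lower (exact permutation test, p = 0.1). In count terms Tuba1c was small, with 28 to 31 counts at 6 months and 36 to 45 at 24 months, and it shares 49.6% of its 69-base words with other genes. Tubal3 was smaller still, with 2 to 3 counts at 6 months and 4 to 7 at 24 months.

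**Figure D4:**
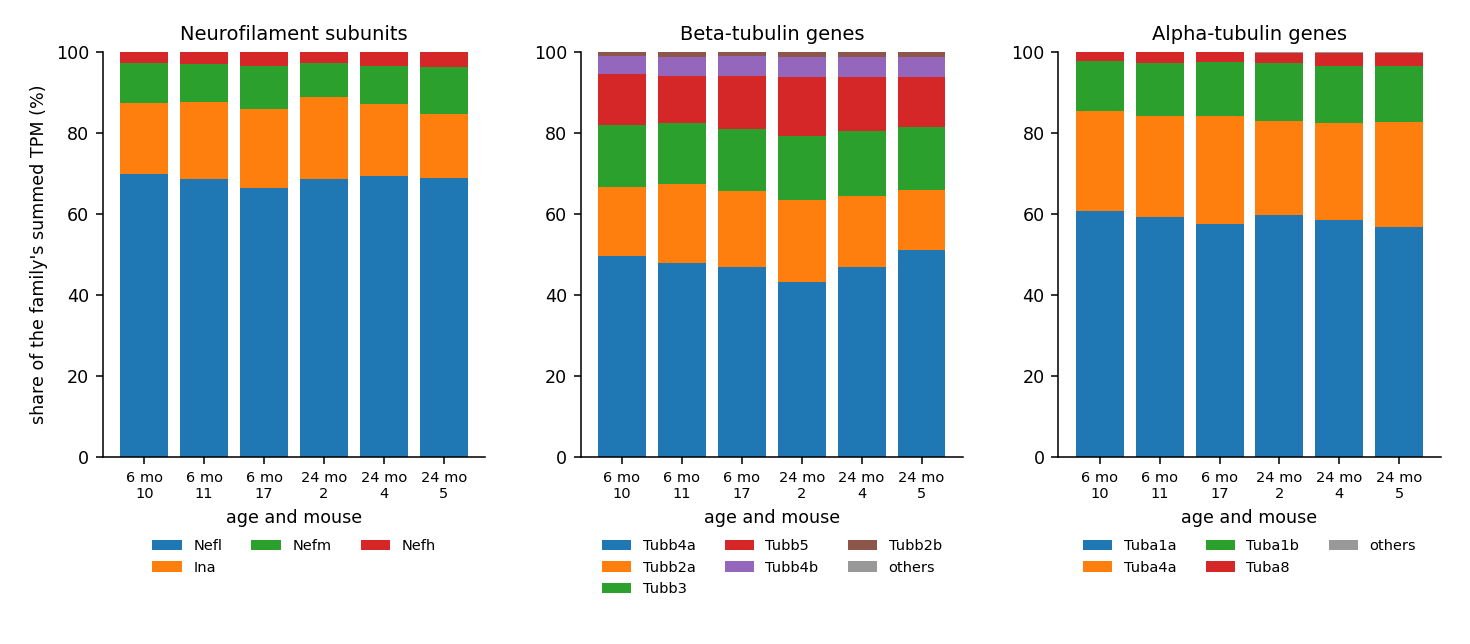
Share of each gene in the summed TPM of the neurofilament, beta-tubulin and alpha-tubulin genes of each mouse, as stacked bars reaching 100%, with the 3 mice of 6 months on the left of each panel. By their means the genes had the same order in both ages, though Tubb3 exceeded Tubb2a in the 24-month-old mouse 5, with Nefl near 69%, Tubb4a near 48% and Tuba1a near 59%.

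Beyond the 10 genes, 103 genes of the microtubule and filament system were followed as lists, of which 101 could be tested. At 1% FDR 0 of them passed in the quasi-likelihood test, and at an unadjusted p under 0.05 40 were lower and 2 higher at 24 months, where 13.1% of all genes tested and 26.9% of those above 1 CPM were lower. The share higher was 17.6% of all genes tested and 4.23% of those above 1 CPM. The median of their log2 fold changes was -0.20. Scaling by library totals left 7 lower and 5 higher, where 5.81% of genes above 1 CPM were lower and 11.9% higher. Without the 6-month-old mouse 11 the number lower was 16 (10.8% of genes above 1 CPM), without mouse 10 it was 25 (18.9%), and without the 24-month-old mouse 4 it was 25 (18%).

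Of the 5 other beta-tubulins, 2 were lower and 1 higher at an unadjusted p under 0.05. Tubb4b, a broadly expressed isotype, had 93.0 to 97.5 CPM at 6 months and 74.5 to 76.0 CPM at 24 months, and Tubb5, the class I isotype, 383 to 415 and 308 to 341 CPM (log2 fold changes -0.33 and -0.30, adjusted p = 0.057 and 0.064 by edgeR). The higher one was Tubb1, a platelet isotype, with 2 to 6 counts at 6 months and 8 to 13 counts at 24 months. Among 5 tested of the 7 other alpha-tubulins, 2 were lower. Tuba4a stood at 241 to 249 CPM and 171 to 195 CPM (log2 fold change -0.45), and Tuba1b at 62.7 to 63.9 CPM and 51.4 to 53.4 CPM (-0.27). Of the 4 gamma-, delta- and epsilon-tubulins, the nucleating Tubg1 (-0.28) and Tubd1 (-0.39) were lower.

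The stathmins bind tubulin dimers and favour disassembly, and 3 of 4 were lower with a list median of -0.40. Stmn1 had 257 to 279 CPM at 6 months and 167 to 194 CPM at 24 months (log2 fold change -0.55 ± 0.09 SE, adjusted p = 0.052), and Stmn2, which is also one of the neuron markers, 218 to 236 and 160 to 172 CPM (-0.45 ± 0.08 SE, adjusted p = 0.052), both in edgeR's test. Of the 6 tubulin folding cofactors, 3 were lower, among them Tbca (-0.33) and Tbcd (-0.28). In the list of 23 enzymes that modify or sever microtubules, 6 were lower, a share close to the 26.9% of genes above 1 CPM. They included Katna1, the katanin severing subunit, at -0.48, and Ttl, which restores the terminal tyrosine of alpha-tubulin, at -0.34.

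Among the 23 other microtubule-associated proteins, 9 were lower and 0 higher, with a median of -0.21. Mapre2, which tracks growing plus ends, had 534 to 590 CPM at 6 months and 441 to 451 CPM at 24 months (log2 fold change -0.35), and Map6, which protects microtubules from cold, 155 to 184 and 127 to 138 CPM (-0.39). Of the 22 motor genes, 10 were lower and 0 higher, with a median of -0.21. The motor gene of smallest p was Dynll1, a light chain of dynein and of other complexes, with 215 to 229 CPM at 6 months and 141 to 158 CPM at 24 months (log2 fold change -0.58 ± 0.09 SE, adjusted p = 0.051 in edgeR's test), followed by Kif3a, a subunit of kinesin-2, at -0.38.

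The 9 other intermediate filament genes were mixed, with 3 lower and 1 higher at an unadjusted p under 0.05. Gfap, the filament of astrocytes, had 131, 174 and 166 CPM at 6 months and 290, 307 and 164 CPM at 24 months (log2 fold change 0.69 ± 0.21 SE, adjusted p = 0.074 in edgeR's test), so mouse 5 lay among the younger mice. Lmnb1, which encodes a nuclear lamin, had 5.42 to 6.00 CPM and 3.30 to 4.57 CPM (log2 fold change -0.51).

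**Figure D5:**
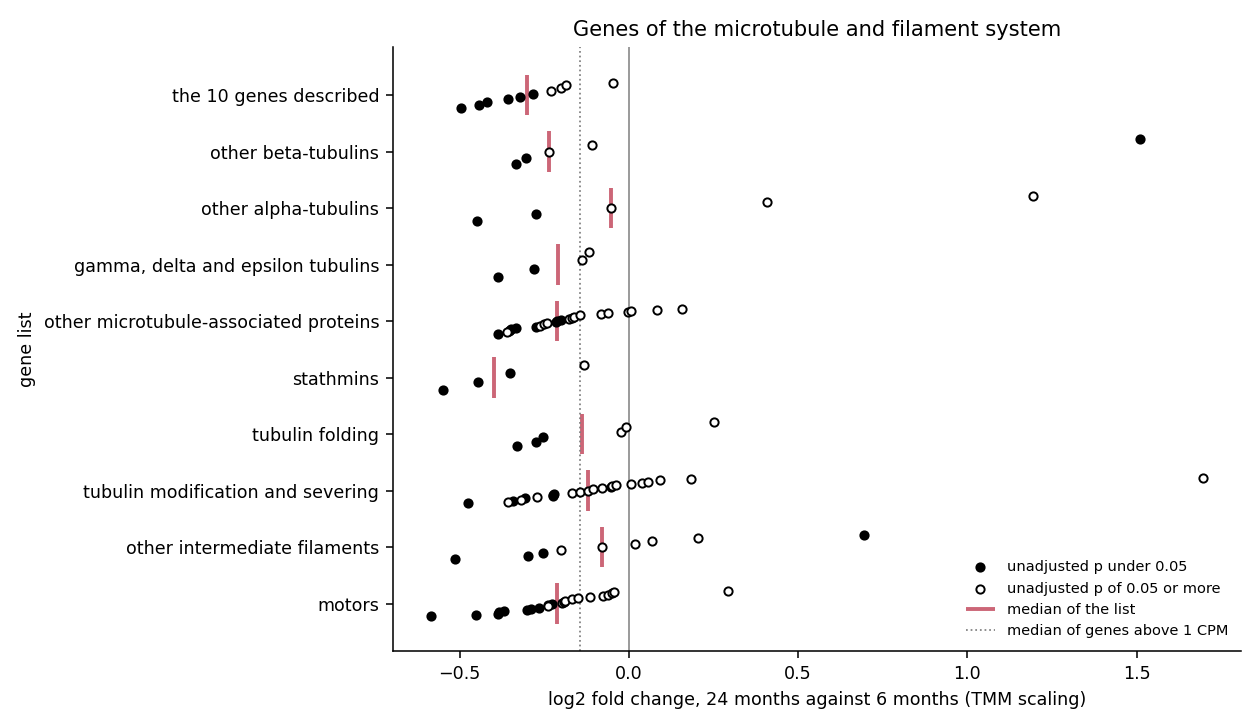
Log2 fold change (24 months against 6 months, TMM scaling, x axis) of every gene tested in each list of the microtubule and filament system, filled where the unadjusted p was under 0.05, with list medians in red. Of the related genes, 83 lie left of 0 and 18 right of it. List medians lie on both sides of the dotted median of genes above 1 CPM (-0.14), from -0.40 for the stathmins to -0.05 for the other alpha-tubulins.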

How the data were processed

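Cortex RNA of 6 mice was sequenced as single reads of 75 bases. Per the labels and the study's methods, the authors trimmed reads with Trim Galore 0.6.4, clipping 3 bases at each end, and mapped them to GRCm38 with STAR 2.7.3a. They counted them on exons with featureCounts (Subread 2.0.0, mapping quality at least 15, multi-mapping reads included as fractions). The deposited count files hold 1 unnormalized count per gene and mouse, and 100% were whole numbers. Whether any read with several positions passed the mapping quality minimum was not examined. The methods name a later GENCODE release than vM21, the one used here, which held 54673 of the 55421 identifiers. In the 12316 to 12804 genes per library with at least 100 counts and a vM21 length, the deposited TPM equalled counts divided by that length and scaled per library, within 1%. Each sample was grouped by the age in its title.

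Counts were tested with edgeR 4.0.16 (R 4.3.3), after TMM scaling, by its quasi-likelihood test with age as the only term. Genes needed 10 or more counts summed over the mice, and p-values were adjusted by Benjamini-Hochberg over all 32905 genes. The methods name edgeR and 1% FDR, but not the test. Alternatives were library totals, DESeq2 1.42.0 size factors, TMM factors of genes above 1 CPM, 3 other filters, the likelihood ratio, exact and DESeq2 Wald tests, limma 3.58.1 on log2(TPM + 1), and each mouse left out. Scaling to 8 neuron markers was added after seeing the data. Shares used exact permutation tests over mice. Totals of 29495379 to 36494240 counts gave each of the 10 genes between 776 and 161725 counts per mouse.

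The 10 genes and the related lists were chosen with earlier results of these data known. In each related list the 2 genes of smallest p with a mean of at least 1 TPM were named. Tubb1, Tuba1c, Tubal3, Tubb2b and Tubb6 were named after their values were seen. Promoters are from RefSeq, in which 7 of the 10 genes were found. Tables were handled in Python 3.11.15 (pandas 2.3.3, scipy 1.17.1).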

Additional observations from a re-analysis of the deposited data

How the results depend on the processing

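The count of 0 genes at 1% FDR was the same in every alternative. In many of them, such as library totals and limma, 0 of all genes tested passed, so the count could not differ. The likelihood ratio test called 1703 of all genes tested at that level. Of the 10 genes, 6 were lower at an unadjusted p under 0.05, against 26.9% of genes above 1 CPM. With library totals the number was 3, against 5.81% of those genes. With the neuron marker scaling, which was added after seeing the data, it was 0. It was 4 to 9 with 1 mouse left out. The 4 came without the 6-month-old mouse 11, where 10.8% of those genes were lower. The 9 came without the 24-month-old mouse 5. No share was computed there or for the neuron marker scaling. The median log2 fold change of the 10 genes, -0.30, became -0.11 with library totals and -0.15 with TMM factors of genes above 1 CPM. It was -0.19 with filterByExpr, -0.15 with genes of a mean of at least 1 CPM and -0.19 with limma on log2(TPM + 1). With the neuron marker scaling it was 0.016. With that last scaling the median of genes above 1 CPM was 0.18. Among the 101 related genes tested, 40 were lower, against 26.9% of genes above 1 CPM. With library totals 7 were lower, against 5.81%. With 1 mouse left out the number was 16 to 48. The 16 came without the 6-month-old mouse 11, against 10.8%, and the 48 without the 24-month-old mouse 5. It was 14 with TMM factors of genes above 1 CPM and 20 with limma. No share was computed for these settings or without mouse 5. The 2 that were higher, against 4.23% of genes above 1 CPM, became 5 with library totals, against 11.9%. They became 5 with those TMM factors, 4 with the likelihood ratio test and 1 to 6 with 1 mouse left out.

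Signs turned for Nefl with library totals (0.0036), and for Nefh with library totals (0.13), TMM factors of genes above 1 CPM (0.10), filterByExpr (0.059), the mean of at least 1 CPM (0.10) and limma (0.0051). With 1 mouse left out, Nefm ran from -0.48 to 0.036, positive without the 24-month-old mouse 2, and Nefh from -0.30 to 0.21, positive without that mouse or the 6-month-old mouse 17 (0.03). With the neuron marker scaling the log2 fold changes were 0.12 for Nefl, 0.087 for Nefm, 0.23 for Nefh, 0.031 for Ina, 0.072 for Map2 and 0.0005 for Map1b. The cause of these turns was not tested, beyond the change of scale or of mice that each alternative makes. No paired analysis was possible because the ages share no mouse numbers. With 3 mice per age, exact tests cannot give a p below 0.1.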
